A study of Mus musculus with 12 samples.

Results

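The 43 genes described here encode proteins of the lysosome: proteases, glycosidases with a sulfatase, lipid enzymes and other luminal proteins, membrane proteins, subunits of the proton pump, and 2 transcription factors that act on lysosomal genes. They were chosen by symbol from a list, and their probe sets were found through the platform's annotation. Of the 43 genes, 42 were on the array, out of 18193 named genes, with 93 of the 45101 probe sets. Cd63 was not analysed here. A gene was tested if its signal exceeded 74.6, the median of all values, in at least 2 of the 12 arrays. This filter passed 40 of the 42 genes and 11696 of the 18193. Ctsh and Atp6v0d2 did not pass, with no array above that level.

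RNA from mouse cells was hybridised to 12 1-colour arrays, in 6 groups of 2. HAFTL cells, which derive from fetal liver and were transformed by Ha-ras, received beta-estradiol. C10, a B cell line with an inducible form of the transcription factor C/EBPα, received the vehicle ethanol, or beta-estradiol for 3, 12, 24 or 48 h. HAFTL therefore had the hormone without the inducible factor, and the labels give no time for HAFTL or for the vehicle cells. C10 is known from the study as 1 clone made from HAFTL, so the factor and whatever else sets that line apart from HAFTL cannot be told apart. The labels do not say whether the duplicates were separate cultures, so p-values here reflect how far these arrays lie apart, and that distance may be only technical. In bulk RNA, fewer cells of a type and less RNA per cell cannot be told apart.

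The lysosome is the acidic compartment in which a cell degrades material taken up by phagocytosis and endocytosis and worn parts of its own. Its hydrolases are made in the endoplasmic reticulum, and many carry a mannose 6-phosphate tag that directs them to the lysosome. The vacuolar ATPase (V-ATPase) pumps protons across the lysosomal membrane, and most of the hydrolases need the low pH that results. TFEB and TFE3, members of the MiT family, bind a palindromic promoter element known as the CLEAR motif in many lysosomal genes. Macrophages are known for a large lysosomal system, and cathepsin S and legumain also process antigens in cells that present them, B cells among them.

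The 300 bases from 250 before to 50 after the start, from RefSeq on GRCm38.p6, were found for 33 of the 42 genes. The letters TCACGTGA, the core of the CLEAR motif, stood in 5 of the 33 (Ctsd, Ctsa, Atp6v1a, Atp6v0d1 and Mcoln1), which is 15.2%, against 1.12% of all 27025 genes in the table. Stretches of 100 bases around it are shown for the 4 of these genes with the largest change at 48 h, because they let the element be set beside the values below. The element is in capitals and each stretch reads 5′ to 3′ on the gene's strand.
Ctsd, chr7:142387873-142387972, minus strand: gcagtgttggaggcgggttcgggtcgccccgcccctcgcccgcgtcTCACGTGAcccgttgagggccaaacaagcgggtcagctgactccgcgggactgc
Ctsa, chr2:164833714-164833813, plus strand: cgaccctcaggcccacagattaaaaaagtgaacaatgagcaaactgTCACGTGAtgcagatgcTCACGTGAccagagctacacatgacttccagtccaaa
Atp6v1a, chr16:44139338-44139437, minus strand: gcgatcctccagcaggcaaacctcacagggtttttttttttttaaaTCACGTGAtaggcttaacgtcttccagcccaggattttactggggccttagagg
Atp6v0d1, chr8:105566015-105566114, minus strand: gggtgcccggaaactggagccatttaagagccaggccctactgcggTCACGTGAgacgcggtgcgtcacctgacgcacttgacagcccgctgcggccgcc
The element began 99 bases before the start in Ctsd, 132 before it in Atp6v1a, 13 before it in Ctsa and 4 before it in Atp6v0d1. Ctsa held it at 2 places, the other of them after the start.

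The shorter letters CACGTG, which TCACGTGA contains, stood in 11 of the 33 promoters (33.3%), against 8.09% of all genes, searched on both strands. Besides the genes with TCACGTGA, these were Ctsl, Gaa, Glb1, Lamp1, Lgmn and Naglu. By call at 48 h, CACGTG stood in 7 of 26 higher genes, 2 of 2 lower genes (Lgmn and Glb1) and 2 of 5 uncalled genes. TTGCGCAA, a palindrome that C/EBP proteins bind, stood in 0 of the 33 and in 0.207% of all genes. GAGGAAGT, a sequence bound by the myeloid and B cell factor PU.1, stood in 3 of the 33 (Ctsc, Ctss and Gusb), which is 9.09%, against 3.69%. A match describes these letters in this window and shows no binding.

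Markers of cell types differed between the groups. The summed signal of 7 macrophage markers (Csf1r, Lyz2, Itgam, Adgre1, Mpeg1, Cd14, Fcgr1) was 113361 and 113963 in the 2 arrays at 48 h, against 844 and 887 in vehicle C10, with 7 of 7 above the filter level at 48 h and 4 of 7 in vehicle C10. The macrophage sum was 1401 to 1635 at 3 h, 8516 to 8741 at 12 h and 82344 to 83140 at 24 h. The 6 B lineage markers were above that level in every group, and their sum was 86592 to 87739 in vehicle C10, 32944 to 33939 at 3 h, 26470 to 26765 at 12 h, 21740 to 23324 at 24 h and 15014 to 16243 at 48 h. It was thus already lower at 3 h, when 17 of 40 lysosomal genes were called lower, against 27.3% of all genes. With another scaling of the arrays, given below, that count of lysosomal genes was 1. The 6 granulocyte markers summed to 196 to 203 in vehicle C10, with 0 above the level, and to 273 to 337 at 3 h, 2677 to 2850 at 12 h, 13783 to 15400 at 24 h and 8662 to 10045 at 48 h. At 24 h 2 were above it and at 48 h 3. From 12 h on most of the sum came from Camp and S100a8, at 8451 and 6677 in the first 24 h array. Mpo, Elane, Ltf and Ngp were at most 96.9 in any array. Of 5 osteoclast markers, 2 were above it in each group, with sums of 3044 to 3064 in vehicle C10, 761.8 to 762.2 at 3 h, 1229 to 1408 at 12 h, 1926 to 2062 at 24 h and 1582 to 1627 at 48 h. Mast cell, T and NK cell and erythroid markers had 0 genes above the level in any group's mean. The 5' to 3' ratio of the Actb probe sets, a sign of RNA quality, was 0.746 to 0.848 in C10 with estradiol and 0.691 to 0.740 in HAFTL, against 0.582 to 0.638 in vehicle C10. That of the Gapdh probe sets did not set vehicle C10 apart from C10 with estradiol, at 1.15 to 1.19 and 1.13 to 1.32. In HAFTL it was 1.28 to 1.37. The part of these differences in the results below was not tested.

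Lysosomal genes were higher at the end of the course and mixed at its start. In limma, with p-values adjusted over all 11696 genes and a threshold of 0.05, 31 of the 40 tested genes were higher at 48 h than in vehicle C10 and 2 lower, where 24.2% of all genes were called higher and 38.2% lower. At 24 h the counts were 29 higher and 2 lower, against 24.2% and 33.3% of all genes, and 12 h gave 14 higher and 13 lower, against 22.3% and 28.7%. The earliest time, 3 h, gave 6 higher and 17 lower, against 20.9% and 27.3%. The median log2 change of the lysosomal genes in time order was -0.31, 0.06, 0.92 and 1.15, beside -0.06, -0.08, -0.13 and -0.19 for all genes. Counting a gene that was under the filter level in vehicle C10 at its bound, the median at 48 h was 1.08. Changes of 2-fold or more were called upward in 22 of the 40 genes at 48 h and downward in 0, against 12.8% and 19.9% of all genes. At 3 h such changes were called upward in 0 and downward in 10, against 7.07% and 11.4%. These 4 comparisons share the vehicle arrays.

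The early counts depended on how arrays were scaled to each other. Scaled to 27 probe sets of poly-A spike-in transcripts in place of quantile normalisation, the median of all genes in time order was 0.58, 0.39, 0.23 and 0.38. On that scale 6 lysosomal genes were higher and 1 (Neu1) lower at 3 h, and 9 were higher and 2 (Lgmn and Laptm5) lower at 12 h. The counts were 21 higher and 1 (Lgmn) lower at 24 h, and 28 higher and 0 lower when 48 h had passed. Of the 11916 genes tested on that scale, 18.5%, 13.3%, 14.7% and 21.5% were called higher in time order. Those called lower numbered 462, 527, 865 and 1133. The share of called genes that were higher moved to 82.7%, 75.0%, 67.0% and 69.3% over the 4 times for all genes, in place of 43.4%, 43.7%, 42.1% and 38.8%. For the lysosomal genes it moved to 85.7%, 81.8%, 95.5% and 100%, in place of 26.1%, 51.9%, 93.5% and 93.9%. The lysosomal median minus that of all genes was -0.25, 0.20, 1.09 and 1.40 with spike-ins, and -0.24, 0.14, 1.05 and 1.33 with quantiles. Spike-in scaling shifts all genes of an array by the same amount, which cancels in this difference. The likeness of these values is therefore no separate support for them. For Lgmn, Neu1 and Laptm5 the SE was wider with spike-ins, as given below, and a wider SE leaves fewer genes called. The mean spike-in signal itself differed between the duplicates at 48 h, at 7.53 and 6.52 on the log2 scale. A fall at 3 or 12 h below is therefore relative to the other genes on the array.

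**Figure D1:**
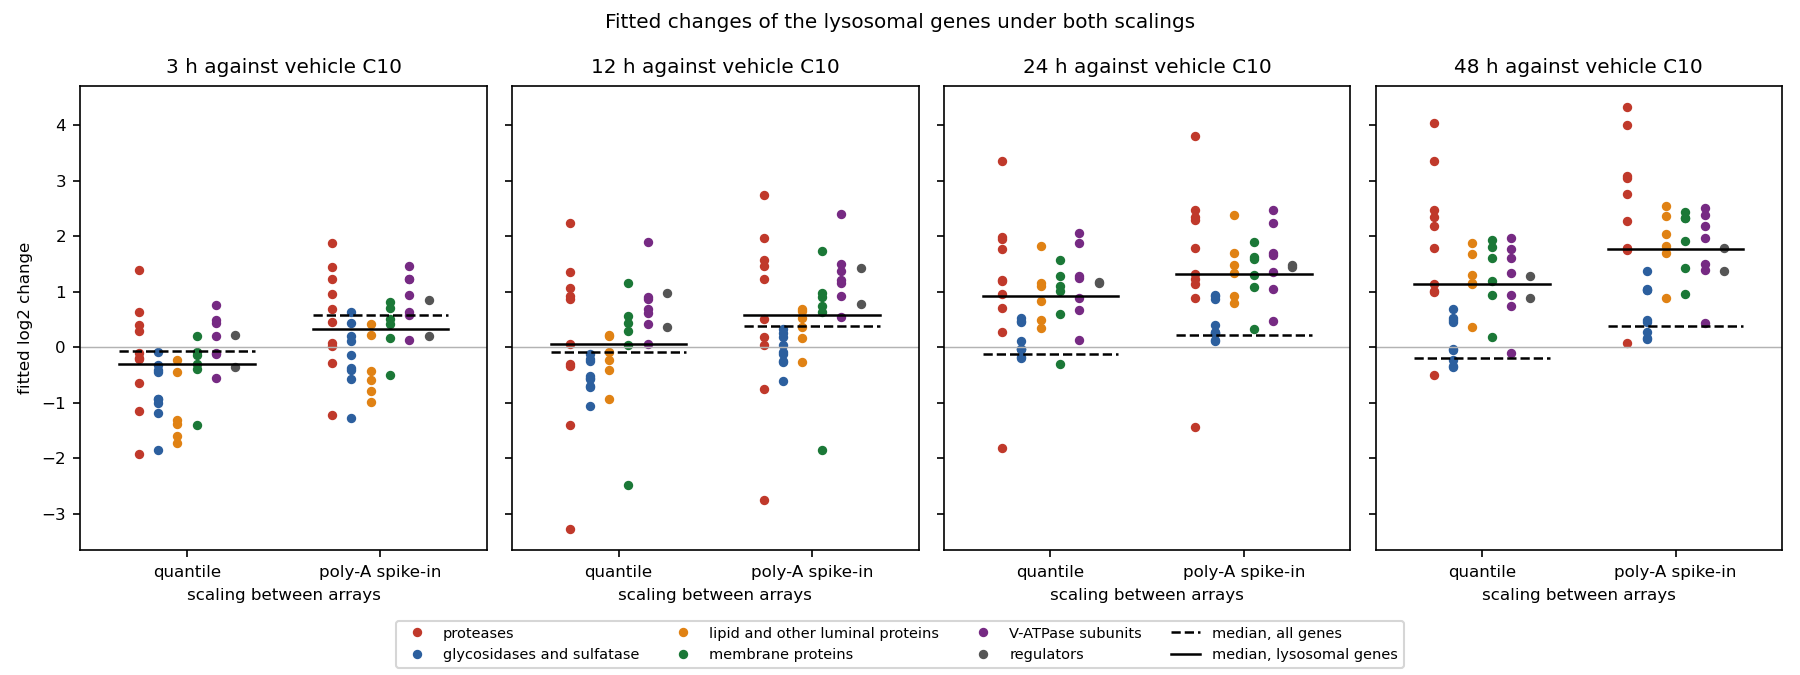
Fitted log2 change of the 40 tested lysosomal genes against vehicle C10 at 3, 12, 24 and 48 h (1 panel each), under quantile normalisation (left in each panel) and scaling to poly-A spike-in transcripts (right); points are genes, coloured by class, and lines are medians. With spike-ins the median of all genes moved to 0.58 at 3 h and the lysosomal median changed sign from -0.31 to 0.33, while at 48 h the lysosomal median was above that of all genes under both. A shift shared by all genes of an array leaves the gap between these medians nearly unchanged.

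Proteases held the largest rises. At 48 h, 8 of the 10 tested were higher and 1 (Lgmn) lower, with a median log2 change of 1.98, or 1.58 with dim genes at their bound. At 3 h the class had 3 genes higher and 3 lower, and at 12 h 4 and 3.

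Ctsd encodes cathepsin D, the main aspartic protease of the lysosome. Its signal was 1255 and 1320 in vehicle C10, 1505 and 1655 after 3 h, 5867 and 6208 after 12 h, 13607 and 12831 after 24 h, and 13159 and 13271 after 48 h. Both arrays at each time from 3 h on exceeded both vehicle arrays. The log2 change at 48 h was 3.36 ± 0.08 (SE, adjusted p = 5.2e-08), and between 24 and 48 h it was 0.00 ± 0.08 (adjusted p = 1.0).

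Ctsa encodes cathepsin A, a serine carboxypeptidase that also protects neuraminidase 1 and beta-galactosidase in a complex. It gave 1559 and 1612 in vehicle C10, 1372 and 1385 after 3 h, 1789 and 1509 after 12 h, 6076 and 6191 after 24 h, and 8634 and 8976 after 48 h. The groups up to 12 h lay close together, and the step between 12 and 24 h was 1.90 ± 0.11 (SE, log2, adjusted p = 7.5e-06). At 48 h the change from vehicle C10 was 2.47 ± 0.11 (adjusted p = 6.4e-07).

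Ctsl, the gene of the cysteine protease cathepsin L, was above the filter level at 48 h alone among the 6 groups. Its signal was at the floor of 16 and 21.2 in vehicle C10, at the floor in both arrays after 3 h, 59.2 and 25.3 after 12 h, 29.2 and 60.6 after 24 h, and 308 and 296 after 48 h. HAFTL gave 18.2 and 56.3. Set against the filter level, cathepsin L transcript was at least 4.04-fold higher at 48 h than in vehicle C10 (adjusted p = 6.0e-04). Ctsl passed the filter through the 48 h arrays, where it had to be high.

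Ctss encodes cathepsin S, which trims the invariant chain of class II molecules. Its signals were 9490 and 9601 in vehicle C10, 4149 and 4426 after 3 h, 3616 and 3663 after 12 h, 11447 and 11550 after 24 h, and 18681 and 19561 after 48 h. The 3 and 12 h arrays lay below both vehicle arrays, and the 24 and 48 h arrays above them. The log2 changes were -1.16 ± 0.06, -1.39 ± 0.06, 0.27 ± 0.06 and 1.00 ± 0.06 (SE), with adjusted p-values from 2.8e-06 to 0.0082. With spike-ins the changes at 3 and 12 h, -0.28 and -0.75, were not called.

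Tpp1, tripeptidyl peptidase, had 3602 and 3045 in vehicle C10, 2090 and 2127 after 3 h, 2714 and 2521 after 12 h, 5479 and 5402 after 24 h, and 7382 and 7278 after 48 h. Its log2 change was -0.65 ± 0.11 at 3 h (SE, adjusted p = 0.0019) and 1.15 ± 0.11 at 48 h (adjusted p = 4.8e-05). The change at 3 h had the other sign with spike-ins, at 0.085.

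Lgmn encodes legumain, an asparaginyl endopeptidase that activates cathepsins and cuts antigens. It was 3663 and 4169 in vehicle C10, 1049 and 1013 after 3 h, 413 and 396 after 12 h, 1107 and 1114 after 24 h, and 2330 and 3281 after 48 h. Arrays at each of the 4 times lay below both vehicle arrays, with the lowest at 12 h. The change at 12 h, -3.27 ± 0.15 (SE, adjusted p = 2.7e-06), was -2.75 ± 0.45 with spike-ins (adjusted p = 1.4e-04). At 48 h the change was -0.50 ± 0.15 (adjusted p = 0.021), with spike-ins it was 0.082 and not called, and without the second vehicle array or the first 48 h array it was -0.41 or -0.25 and not called (adjusted p = 0.11 and 0.082). Between 24 and 48 h legumain transcript rose by 1.32 ± 0.15 (adjusted p = 8.8e-04).

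Of the other proteases, Ctsb (cathepsin B), Ctsc (cathepsin C, which activates granule serine proteases) and Ctsz (cathepsin Z) were higher at each of the 3 later times. Their log2 changes at 48 h were 2.34 ± 0.07, 2.18 ± 0.06 and 1.01 ± 0.13 (SE, adjusted p = 1.3e-07, 9.8e-08 and 3.2e-04). Ctsc and Ctsz were already higher at 3 h, at 0.63 ± 0.06 and 0.40 ± 0.13 (adjusted p = 1.2e-04 and 0.042), though Ctsz was not called in 7 of the 12 fits that left out 1 array (adjusted p up to 0.23). Ctsk, the collagen-degrading cathepsin K of osteoclasts, reached 97.9 and 107 at 48 h, against 55.4 and the floor of 16 in vehicle C10. That difference was not called (adjusted p = 0.082). It was called higher with spike-ins (2.28, adjusted p = 0.0051), with a floor of 64 (0.68, adjusted p = 4.4e-04), without either HAFTL array (adjusted p = 0.048 each) and without the first vehicle array (2.68, adjusted p = 0.031). Ctsh stayed between 16 and 57.3 in all 12 arrays.

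**Figure D2:**
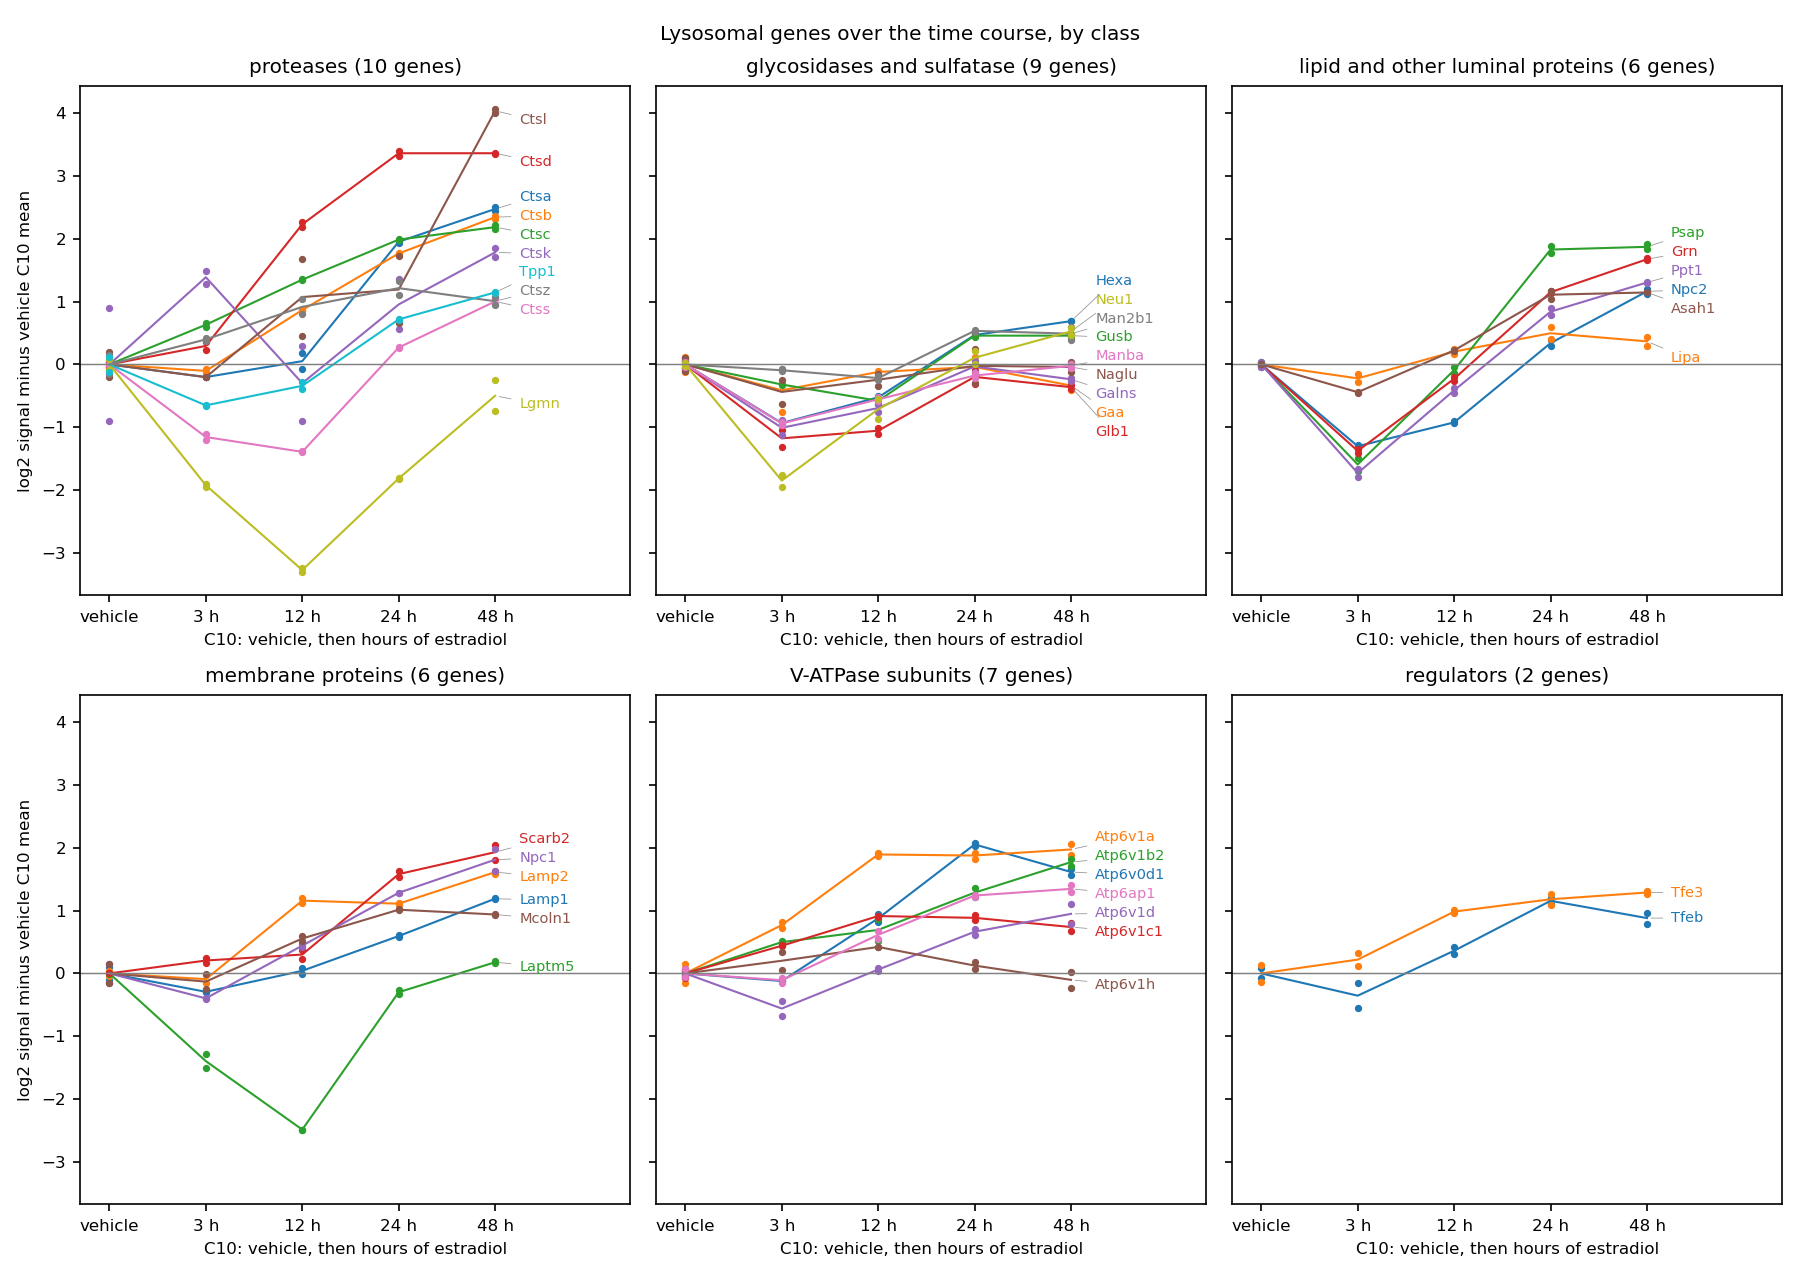
Log2 signal minus the vehicle C10 mean in vehicle C10 and at 3, 12, 24 and 48 h of estradiol, 1 panel per class; lines join group means, points are arrays and labels name genes. Proteases and V-ATPase subunits spread upward, glycosidases stay within 0.69 of vehicle C10 at 48 h, and Lgmn and Laptm5 reach -3.27 and -2.49 at 12 h (-2.75 and -1.85 with spike-in scaling); the 3 h medians of proteases, membrane proteins and regulators, the 12 h median of the lipid class and the 24 and 48 h medians of the glycosidases change sign with spike-ins.

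Glycosidases, which cut sugars off glycoproteins and glycolipids, and the sulfatase Galns showed small differences at 48 h. Of 9 tested, 4 were higher and 1 lower at 48 h, 0 by 2-fold or more, and the class median was -0.02 beside -0.19 for all genes, or 0.49 beside 0.38 with spike-ins. At 3 h and again at 12 h, 6 of the 9 were lower and 0 higher, with medians of -0.93 and -0.56. With spike-ins the class medians at 3 and 12 h were -0.14 and -0.08, which is -0.72 and -0.47 relative to all genes, and 1 gene (Neu1) was called lower at 3 h and 0 at 12 h.

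Neu1, the sialidase neuraminidase 1, had the largest fall of the class at 3 h. Signals were 1444 and 1387 in vehicle C10, 368 and 420 after 3 h, 962 and 776 after 12 h, 1635 and 1420 after 24 h, and 1958 and 2119 after 48 h. The 3 and 12 h arrays lay below the vehicle arrays and the 48 h arrays above them, with those at 24 h overlapping. The log2 change at 3 h was -1.85 ± 0.13 (SE, adjusted p = 2.0e-05), and -1.27 ± 0.42 with spike-ins (adjusted p = 0.035). At 48 h it was 0.53 ± 0.13 (adjusted p = 0.0074), and 0.080 and not called as the mean of the gene's probe sets.

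Hexa encodes the alpha subunit of beta-hexosaminidase, which degrades ganglioside GM2. It gave 4908 and 4536 in vehicle C10, 2498 and 2445 after 3 h, 3250 and 3312 after 12 h, 6603 and 6449 after 24 h, and 7604 in both arrays after 48 h. Its changes were -0.93 ± 0.07 at 3 h and 0.69 ± 0.07 at 48 h (SE, log2, adjusted p = 2.2e-05 and 4.6e-05), the second the largest rise of the class.

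Gusb, beta-glucuronidase, had 3313 and 3060 in vehicle C10, 2561 and 2542 after 3 h, 2065 and 2199 after 12 h, 4452 and 4294 after 24 h, and 4284 and 4460 after 48 h. The 4 arrays at 3 and 12 h were lower than both vehicle arrays, and the 4 at 24 and 48 h higher. The 3 h change was -0.32 ± 0.07 (SE, log2, adjusted p = 0.0082), and it turned to 0.43 with spike-ins and to 0.047 as the mean of probe sets.

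Man2b1, lysosomal alpha-mannosidase, gave 2358 and 2303 in vehicle C10, 2157 and 2214 after 3 h, 1953 and 2056 after 12 h, 3407 and 3343 after 24 h, and 3042 and 3514 after 48 h. At 48 h the change was 0.49 ± 0.08 (SE, log2, adjusted p = 0.0011), and 0.31 and not called as the mean of probe sets.

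Glb1, the beta-galactosidase that degrades ganglioside GM1, was the member of the class called lower at 48 h. It gave 1492 and 1732 in vehicle C10, 782 and 647 after 3 h, 747 and 801 after 12 h, 1511 and 1298 after 24 h, and 1276 and 1226 after 48 h. Its lowest arrays were those at 3 and 12 h, at -1.18 ± 0.12 and -1.05 ± 0.12 (SE, log2, adjusted p = 1.8e-04 and 2.7e-04). The change at 48 h was -0.36 ± 0.12 (adjusted p = 0.035), was 0.16 with spike-ins, and was not called when the replicate number was a block (adjusted p = 0.050), without the filter (0.057) or in a fit of the compared groups (0.072). It was also lost without either HAFTL array (0.051 each), the second vehicle array (0.19) or either 48 h array (0.079 and 0.12). Against HAFTL, the 48 h value was 0.03 ± 0.12 (adjusted p = 0.86).

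Galns, which removes sulfate from keratan sulfate, and Manba, beta-mannosidase, were lower at 3 h by -1.01 ± 0.11 and -0.94 ± 0.07 (SE, log2, adjusted p = 2.4e-04 and 3.0e-05). At 48 h neither was called, at -0.24 ± 0.11 and -0.02 ± 0.07. Gaa, acid alpha-glucosidase, and Naglu, which degrades heparan sulfate, were not called at any of the 4 times, with changes between -0.44 and -0.02. The other Gaa probe set was called lower at 12, 24 and 48 h, at -0.38, -0.52 and -0.48, and the mean of both was called lower at 48 h, at -0.41 (adjusted p = 0.035).

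The lipid enzymes, lipid carriers and other luminal proteins had the lowest 3 h median, -1.34, yet 6 of 6 were higher at both later times, 24 and 48 h. At 3 h, 5 of 6 were lower, and at 12 h 3 were. With spike-ins the 3 h median was -0.51 and 0 of the 6 were called. Relative to all genes that median was -1.09 with spike-ins and -1.28 with quantiles. The 12 h median of -0.16 became 0.45 with spike-ins.

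Psap encodes prosaposin, the precursor of the saposins that help enzymes reach sphingolipids. It had 6741 and 6436 in vehicle C10, 2349 and 2033 after 3 h, 6402 and 5977 after 12 h, 24190 and 22592 after 24 h, and 24748 and 23453 after 48 h. Its change was -1.59 ± 0.10 at 3 h (SE, log2, adjusted p = 1.1e-05), and the steps that followed were 1.50 ± 0.10 from 3 to 12 h and 1.92 ± 0.10 from 12 to 24 h (adjusted p = 4.9e-05 and 4.1e-06). At 48 h prosaposin transcript was 1.87 ± 0.10 above vehicle C10 (adjusted p = 1.5e-06).

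Grn, progranulin, gave 5250 and 5172 in vehicle C10, 1960 and 2057 after 3 h, 4555 and 4343 after 12 h, 11712 and 11399 after 24 h, and 16761 and 16478 after 48 h. Ppt1, which removes palmitate from proteins, gave 4622 and 4387 in vehicle C10, 1426 and 1294 after 3 h, 3467 and 3303 after 12 h, 8371 and 7755 after 24 h, and 11214 and 11024 after 48 h. In both genes the 3 and 12 h arrays lay below the vehicle arrays and the 24 and 48 h arrays above. The 3 h changes were -1.38 ± 0.06 for Grn and -1.73 ± 0.08 for Ppt1 (SE, log2, adjusted p = 3.7e-06 and 3.3e-06), and the 48 h changes 1.67 ± 0.06 and 1.30 ± 0.08 (adjusted p = 3.9e-07 and 3.5e-06). At 12 h, Grn at -0.23 and Ppt1 at -0.41 turned to 0.37 and 0.17 with spike-ins.

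Npc2, a carrier that moves cholesterol inside the lysosome, gave 12550 and 12530 in vehicle C10, 5174 and 4999 after 3 h, 6549 and 6685 after 12 h, 16347 and 15391 after 24 h, and 27358 and 28815 after 48 h. Its 2 vehicle arrays were nearly equal, and no array at any time overlapped them. The change was -1.30 ± 0.08 at 3 h and 1.16 ± 0.08 at 48 h (SE, log2, adjusted p = 9.3e-06 and 5.3e-06).

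Asah1, acid ceramidase, gave 1950 and 1946 in vehicle C10, 1442 and 1426 after 3 h, 2288 and 2262 after 12 h, 4389 and 4021 after 24 h, and 4307 in both arrays after 48 h. The change was -0.44 ± 0.09 at 3 h (SE, log2, adjusted p = 0.0043), or 0.23 with spike-ins, and 1.14 ± 0.09 at 48 h (adjusted p = 1.4e-05). Lipa, acid lipase, was 0.37 ± 0.11 above vehicle C10 at 48 h (adjusted p = 0.018), and 0.056 and not called as the mean of its probe sets. Without either vehicle array or the second 48 h array it was 0.30 to 0.39 and not called (adjusted p = 0.055 to 0.096).

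**Figure D3:**
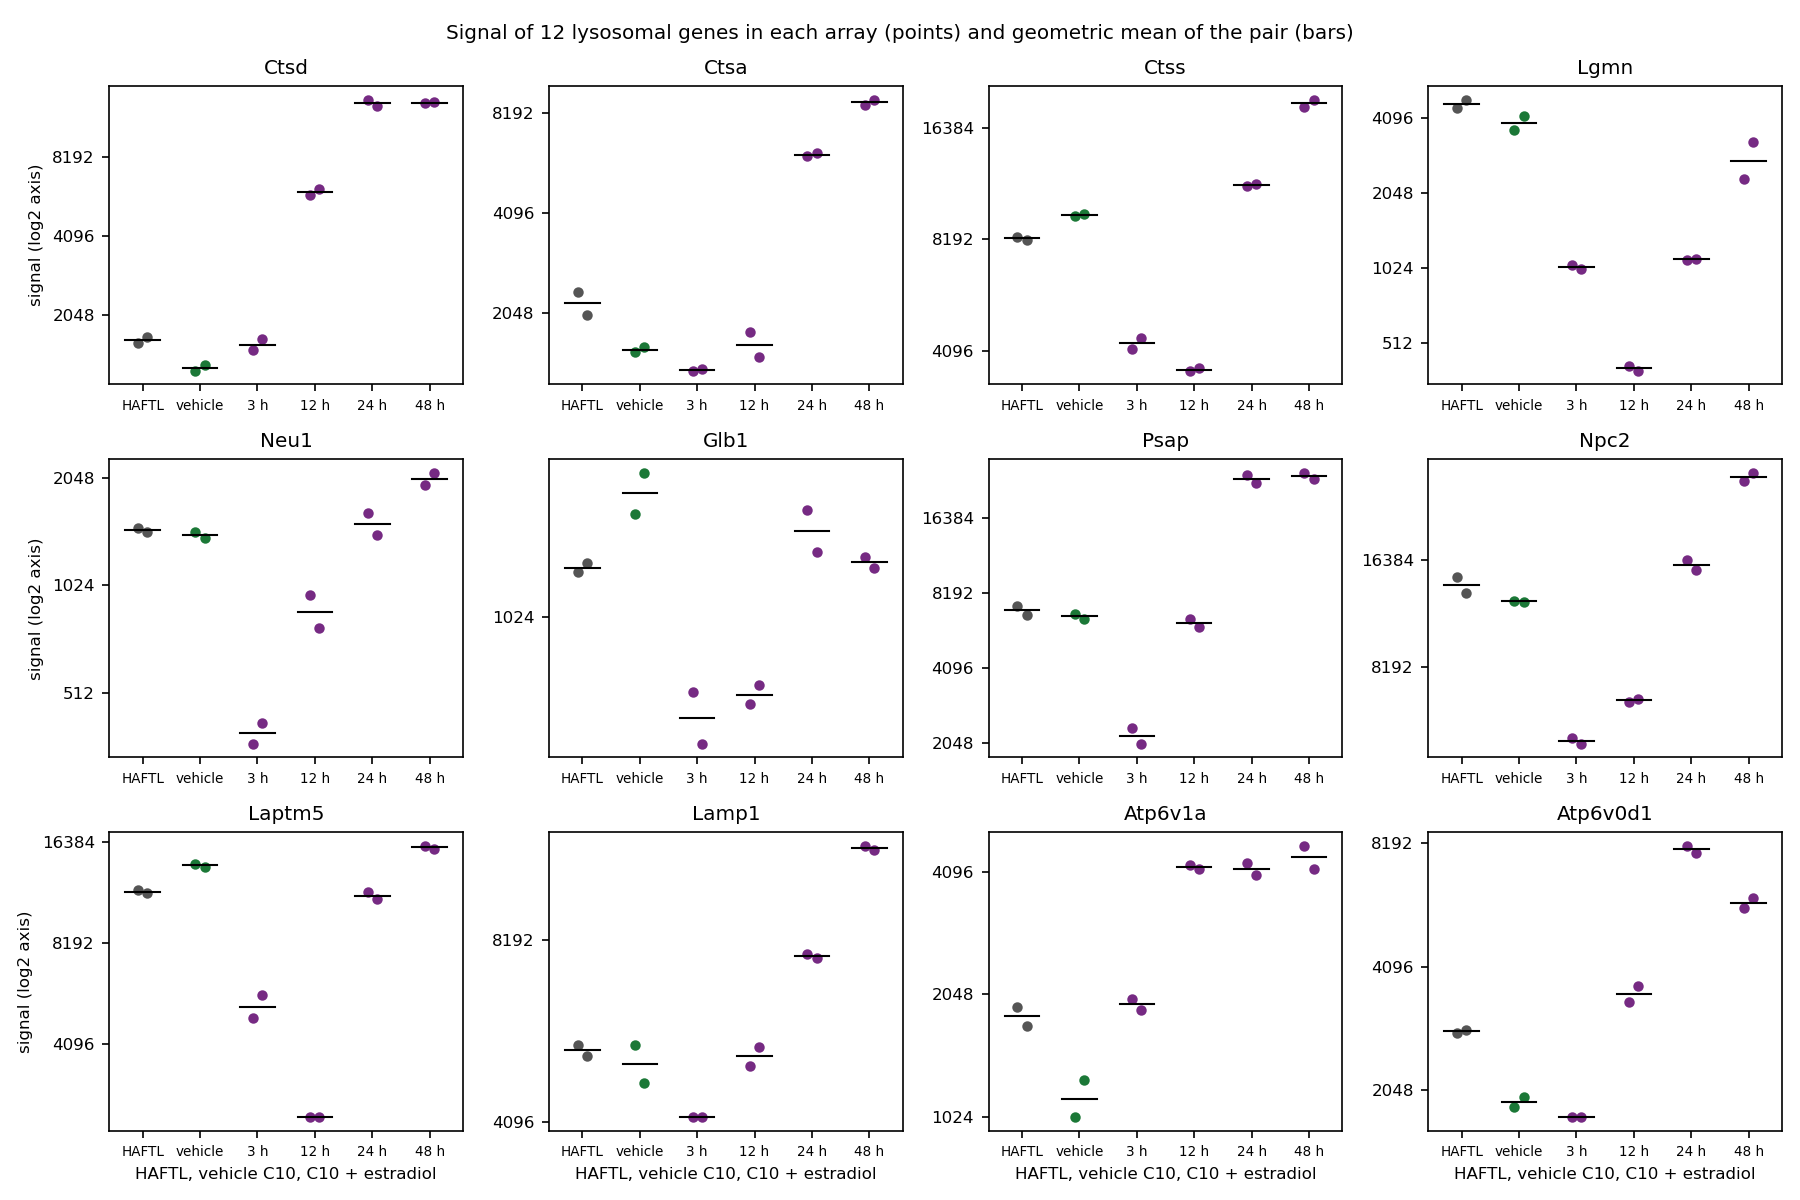
Normalised signal (log2 axis, 1 panel per gene with its own range) of 12 lysosomal genes in HAFTL, vehicle C10 and C10 after 3, 12, 24 and 48 h of estradiol; points are the 2 arrays of a group and bars their geometric mean. Ctsd and Atp6v1a are above the vehicle arrays from 3 h on, Ctss, Neu1, Psap and Npc2 lie below them at 3 h and above at 48 h, and Lgmn is lowest at 12 h (413 and 396).

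Among the membrane proteins, 5 of 6 were higher at 48 h and 0 lower, with a median of 1.40. At 3 h, 2 were lower (Lamp1 and Laptm5) and 0 higher. At 12 h, 3 were higher (Lamp2, Npc1 and Mcoln1) and 1 (Laptm5) lower.

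Scarb2 encodes LIMP-2, the receptor that carries glucocerebrosidase to the lysosome. It was 767 and 766 in vehicle C10, 910 and 857 after 3 h, 901 and 989 after 12 h, 2211 and 2373 after 24 h, and 2682 and 3175 after 48 h. The step from 12 to 24 h was 1.28 ± 0.11 (SE, log2, adjusted p = 5.8e-05), and the 48 h change from vehicle C10 was 1.93 ± 0.11 (adjusted p = 2.5e-06).

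Npc1, the membrane protein that exports cholesterol from the lysosome, gave 219 and 178 in vehicle C10, 149 and 151 after 3 h, 273 and 264 after 12 h, 480 and 481 after 24 h, and 781 and 614 after 48 h. It stood 1.81 ± 0.15 above vehicle C10 at 48 h (SE, log2, adjusted p = 2.0e-05). Mcoln1, the calcium channel mucolipin 1, was 0.94 ± 0.16 above it (adjusted p = 0.0011).

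Lamp1 and Lamp2 encode the heavily glycosylated proteins that line the lysosomal membrane. Lamp1 gave 5489 and 4747 in vehicle C10, 4167 in both arrays after 3 h, 5070 and 5444 after 12 h, 7761 and 7653 after 24 h, and 11726 and 11550 after 48 h. Lamp2 gave 4402 and 4681 in vehicle C10, 4454 and 4075 after 3 h, 10420 and 9848 after 12 h, 9920 and 9670 after 24 h, and 13656 and 14084 after 48 h. Lamp2 arrays stood above the vehicle arrays at 12 h, when those of Lamp1 overlapped them. The changes from vehicle C10 at 12 h were 1.16 ± 0.08 for Lamp2 and 0.04 ± 0.08 for Lamp1 (SE, log2, adjusted p = 1.7e-05 and 0.72), and at 48 h 1.61 ± 0.08 and 1.19 ± 0.08 (adjusted p = 1.1e-06 and 8.8e-06). Lamp1 at 3 h was -0.29 ± 0.08 (adjusted p = 0.023), or 0.51 with spike-ins. Lamp2 at 3 h was -0.09 and not called, but 2 of its 4 probe sets were called lower, at -1.06 and -0.66. The mean of the Lamp2 probe sets was also called lower, at -0.43 (adjusted p = 0.0020).

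Laptm5, a lysosomal membrane protein of blood cells that lowers antigen receptor levels, is given in full here because its change at 12 h was seen to be the largest of the class. It had 14068 and 13835 in vehicle C10, 4896 and 5744 after 3 h, 2489 and 2493 after 12 h, 11615 and 11067 after 24 h, and 15936 and 15627 after 48 h. The 3 and 12 h arrays were far under those of vehicle C10. At 12 h the change was -2.49 ± 0.08 (SE, log2, adjusted p = 6.7e-07), or -1.85 ± 0.41 with spike-ins (adjusted p = 0.0029). The step from 12 to 24 h was 2.19 ± 0.08 (adjusted p = 1.5e-06). At 48 h the change was 0.18 ± 0.08 and was not called (adjusted p = 0.10). It was called higher without quantile normalisation (0.40, adjusted p = 0.0076) and with arrays centred on their medians (0.36, adjusted p = 0.019). With a robust prior and a trend it was also called higher (0.18, adjusted p = 0.028).

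Most V-ATPase subunits tested were called higher from 12 h on. Of 7 tested, 3 were higher and 1 lower at 3 h, and 6 higher and 0 lower at each later time, with medians of 0.20, 0.69, 1.24 and 1.35. With spike-ins the counts in time order were 3, 3, 5 and 6 higher, and 0 lower at each. Atp6v1d at 12 h and Atp6v1h at 24 and 48 h were not called.

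Atp6v1a and Atp6v1b2 encode the subunits A and B that form the ATP-splitting head of the pump. Atp6v1a had 1021 and 1259 in vehicle C10, 1994 and 1873 after 3 h, 4267 and 4156 after 12 h, 4303 and 4026 after 24 h, and 4744 and 4173 after 48 h. Atp6v1b2 had 2283 and 2219 in vehicle C10, 3226 and 3131 after 3 h, 3212 and 4118 after 12 h, 5763 and 5223 after 24 h, and 7392 and 7986 after 48 h. Atp6v1a was near its final level at 12 h, with a step from 12 to 24 h of -0.02 ± 0.12 and from 24 to 48 h of 0.10 ± 0.12 (SE, log2, adjusted p = 0.93 and 0.61). Atp6v1b2 still gained 0.49 ± 0.12 between 24 and 48 h (adjusted p = 0.021, and 0.051 to 0.11 without any 1 of these 4 arrays). At 48 h the changes were 1.97 ± 0.12 and 1.77 ± 0.12 (adjusted p = 3.9e-06 and 6.7e-06).

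Atp6v0d1 encodes the d1 subunit of the stalk that joins the head to the membrane ring. Its signals were 1854 and 1968 in vehicle C10, 1756 in both arrays after 3 h, 3358 and 3661 after 12 h, 8072 and 7777 after 24 h, and 5680 and 6015 after 48 h. The 24 h arrays were the highest, and the step from 24 to 48 h was -0.44 ± 0.07 (SE, log2, adjusted p = 0.0044). The changes from vehicle C10 were 2.05 ± 0.07 at 24 h and 1.61 ± 0.07 at 48 h (adjusted p = 5.9e-07 and 8.4e-07). Atp6v0d2, the d2 form known from osteoclasts and some macrophages, was under the filter level in all 12 arrays, with signals of 25.1 and 64.8 at 48 h, against 31.3 and 34.6 in vehicle C10.

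Atp6v1d, a subunit of the central shaft, gave 2160 and 2132 in vehicle C10, 1340 and 1582 after 3 h, 2271 and 2205 after 12 h, 3281 and 3518 after 24 h, and 3716 and 4609 after 48 h. It was -0.56 ± 0.12 at 3 h (SE, log2, adjusted p = 0.0060), or 0.13 with spike-ins, and 0.95 ± 0.12 at 48 h (adjusted p = 2.3e-04). Atp6ap1, an accessory protein needed to assemble the pump, and Atp6v1c1, subunit C, were 1.35 ± 0.08 and 0.74 ± 0.08 above vehicle C10 at 48 h (adjusted p = 4.4e-06 and 8.6e-05). Atp6v1h, subunit H, was called at 12 h, at 0.42 ± 0.12 (adjusted p = 0.021, and 0.073 to 0.10 without the second vehicle or either 12 h array), and not at 48 h, at -0.10 ± 0.12.

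Both regulators were higher in the 24 h and 48 h arrays. Tfeb gave 527 and 587 in vehicle C10, 379 and 500 after 3 h, 688 and 742 after 12 h, 1202 and 1277 after 24 h, and 964 and 1088 after 48 h. Tfe3 gave 757 and 911 in vehicle C10, 900 and 1039 after 3 h, 1674 and 1609 after 12 h, 1774 and 1994 after 24 h, and 1983 and 2071 after 48 h. Tfe3 was called from 12 h, at 0.98 ± 0.12 (SE, log2, adjusted p = 2.6e-04), while Tfeb at 12 h was 0.36 ± 0.14 (adjusted p = 0.060). Tfeb at 12 h was called higher with a filter at the 70th percentile (adjusted p = 0.036) or a floor of 64 (0.049). It was also called with the replicate number as a block (0.023) or a robust prior with a trend (0.037). At 48 h the changes were 0.88 ± 0.14 for Tfeb and 1.29 ± 0.12 for Tfe3 (adjusted p = 7.5e-04 and 3.2e-05). These are transcript levels, and both factors are known to be controlled by phosphorylation, which an array does not measure.

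**Figure D4:**
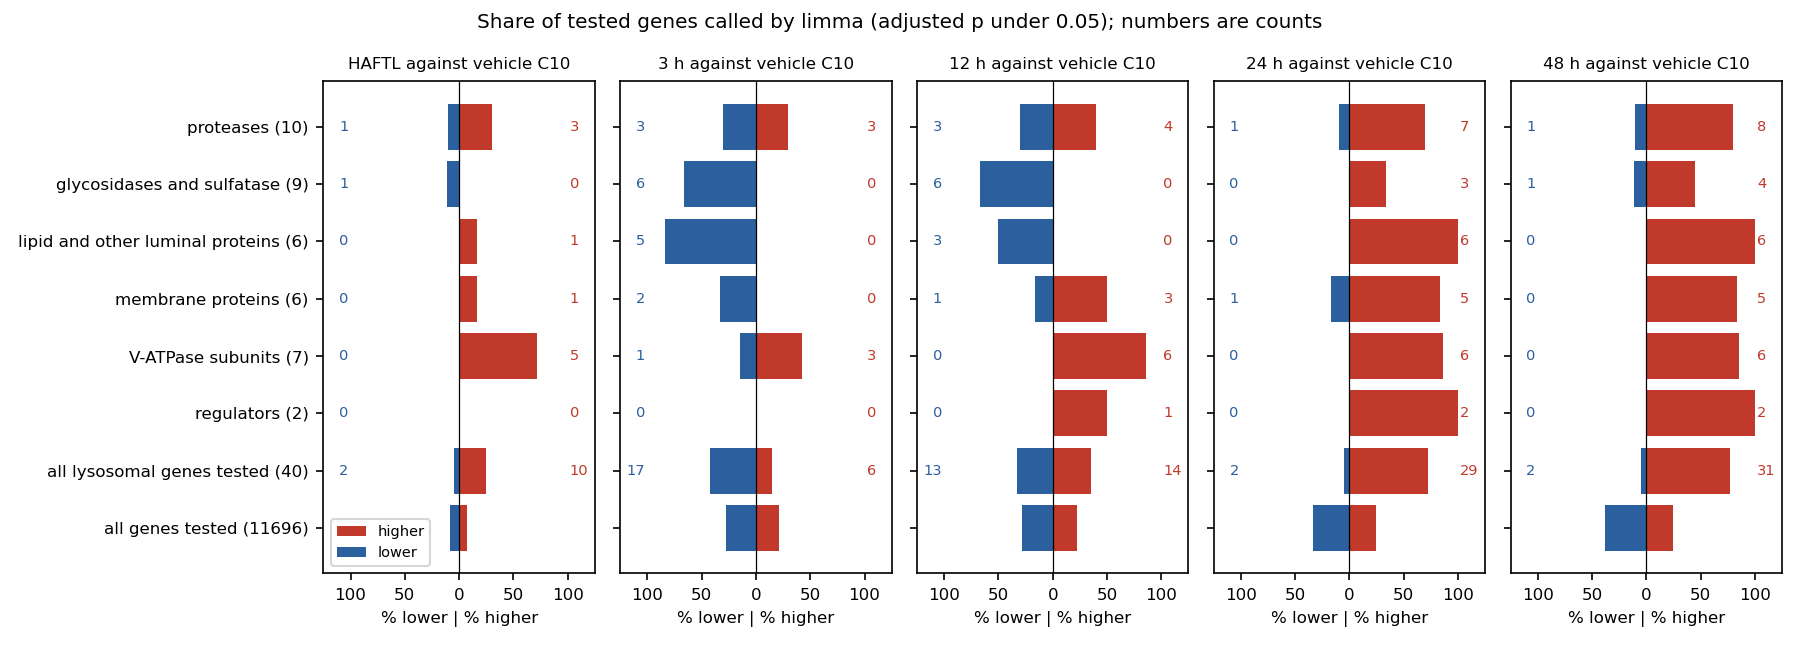
Percent of tested genes called higher (right of 0) and lower (left of 0) than vehicle C10 in HAFTL and at 3, 12, 24 and 48 h of estradiol, for each class, all lysosomal genes and all genes tested; figures beside the bars are counts of genes. At 48 h bars reach 100% for the lipid class and the regulators and the lysosomal total is 31 higher and 2 lower; at 3 h the lysosomal total is 6 higher and 17 lower, or 6 and 1 with spike-in scaling.

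The steps between neighbouring times place most of the gain from 3 h on. From 3 to 12 h, 24 of the 40 genes rose and 4 fell (16.6% and 16.6% of all genes). From 12 to 24 h, 29 rose and 0 fell (22.3% and 23.1%), with a median of 0.81 beside -0.01 for all genes. From 24 to 48 h, 18 rose and 1 (Atp6v0d1) fell (9.47% and 17.9%), with a median of 0.18, and without the first 24 h array 9 rose. The largest of the 4 steps in size, rises and falls alike, was the first for 9 genes, 3 to 12 h for 13, 12 to 24 h for 16, and 24 to 48 h for 2. In those 9 the first step was downward, though not called in Gaa and Naglu. The largest steps of Ctsk (3 to 12 h) and Atp6v1h (12 to 24 h) were also downward and not called. The 12 to 24 h step was called upward in 7 of 10 proteases, 7 of 9 glycosidases, 5 of 6 luminal, 5 of 6 membrane and 4 of 7 V-ATPase genes. From 24 to 48 h, 7 of 10 proteases and 5 of 6 membrane genes still rose, and 1 of 7 V-ATPase genes did. With spike-ins 1, 5 and 1 genes rose over these 3 steps and 0 fell. On that scale 1.63%, 5.68% and 1.4% of all genes rose, and 209, 733 and 153 of 11916 fell.

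HAFTL had the hormone without the inducible factor. In HAFTL 10 of the 40 genes were higher and 2 lower, where 7.11% of all genes were higher and 8.12% lower, and 0 of these changes reached 2-fold, where 1.39% of all genes were higher and 2.03% lower by as much. Of the 10, 5 were V-ATPase subunits, out of 7 tested, with log2 differences between 0.37 (Atp6v1c1) and 0.67 (Atp6v1a). Atp6v0d1 had 2824 and 2863 in HAFTL, against 1854 and 1968 in vehicle C10, a difference of 0.57 ± 0.07 (SE, adjusted p = 0.0029). The other 5 were Ctsa, Ctsd, Tpp1, Grn and Scarb2, at 0.29 to 0.54. Dimmer probe sets of some of these genes were not called in HAFTL. They gave 0.12 for Atp6v1a, 0.10 and 0.27 for Atp6v1c1, 0.21 for Tpp1, 0.24 and 0.23 for Grn, and -0.14 for Scarb2. A dimmer Atp6v1b2 probe set was called higher, at 0.40, and the dimmest tested, at -0.21, was not. The dimmer Ctsa probe set, at 1.27, was not called. Ctsc and Galns were lower, at -0.67 ± 0.06 and -0.49 ± 0.11 (adjusted p = 8.1e-04 and 0.027). With each array centred on its median the counts were 3 higher and 6 lower, with spike-ins 0 and 0, and in a fit of HAFTL and vehicle C10 alone 0 and 0. Of all genes, 406 were higher and 1332 lower of 11698 with median centring, and 60 and 78 of 11916 with spike-ins. With so few genes called, the 0 and 0 with spike-ins say little. Without the first HAFTL array, 2 genes were higher.

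Against HAFTL, 32 genes were higher at 48 h and 1 (Lgmn) lower, where 24.2% and 38.3% of all genes were. The 48 h arrays are shared with the comparison above. The V-ATPase median was 0.76 in this comparison and 1.35 against vehicle C10, and that of the proteases 1.85 and 1.98. Atp6v1a had 4744 and 4173 at 48 h, against 1910 and 1708 in HAFTL, a difference of 1.30 ± 0.12 (SE, log2, adjusted p = 4.0e-05). Laptm5, with 15936 and 15627 at 48 h, against 11755 and 11550 in HAFTL, was called higher by this comparison, at 0.44 ± 0.08 (adjusted p = 0.0025). With HAFTL in place of vehicle C10, the 3 h changes of Ctsd and Atp6v1b2 were -0.058 and -0.061, where they had been 0.29 and 0.50. Atp6v1a and Atp6v1c1, also called higher at 3 h against vehicle C10, lay near HAFTL. Their log2 means were 10.92 and 12.40 at 3 h, against 10.82 and 12.34 in HAFTL. Ctsc and Ctsz stayed above HAFTL, at 13.7 and 13.7 against 12.4 and 13.3.

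Each gene was read from its brightest probe set, and 23 genes had more than 1 that passed the filter. At 48 h, 0 of the 23 had probe sets called in opposite directions. Opposite calls occurred at 3 h in Ctsb and Atp6v1b2, at 12 h in Ctsb and Ppt1, and at 24 h in Laptm5. The 3 Ctsc probe sets gave 2.18, 4.70 and 5.55 at 48 h, the smallest from the brightest, and the 3 of Grn gave 1.67, 2.25 and 2.86 in the same order. A dimmer Atp6v1h probe set gave 1.14 at 48 h, beside -0.10 for the brightest. As the mean of its probe sets Atp6v1h was called higher at 48 h, at 0.34 (adjusted p = 0.0061). A dimmer Laptm5 probe set gave 1.84 and another 0.81, both called higher, beside 0.18. In other genes a dimmer probe set was lower: Scarb2 gave 0.84 beside 1.93 for its brightest, and at 24 h 0.22, not called, beside 1.58. The dimmest tested Atp6v1b2 probe set gave 0.44 at 48 h beside 1.77, and a dim Neu1 probe set -0.29 beside 0.53, both dim values not called. Over the 23 genes the brightest probe set gave the highest change in 11 and the lowest in 7.

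Other genes of the lysosome were taken from 7 further lists, whose counts at 48 h stand beside 24.2% of all genes higher and 38.2% lower than in vehicle C10. Of 25 other hydrolases tested, 11 were higher and 5 lower, with a median of 0.32. The 4 largest changes of that list were those of Sumf1 (2.41 ± 0.10), Dpp7 (2.15 ± 0.14), Gla (2.04 ± 0.12) and Arsb (-1.96 ± 0.20) (SE, log2, adjusted p from 4.7e-07 to 7.2e-05). Sumf1, which activates sulfatases, was on the list but is not itself a hydrolase. Dpp7 releases dipeptides from the N-terminus of peptides, Gla is alpha-galactosidase A and Arsb a sulfatase. Of 21 other membrane proteins and transporters, 11 were higher and 2 lower, with a median of 0.80. Slc11a1, the metal transporter Nramp1 of phagocytes, was 3.14 ± 0.17 higher, and the macrophage glycoprotein gene Cd68 2.74 ± 0.12 (adjusted p = 1.9e-06 and 7.6e-07). Slc15a3, a peptide transporter, and Mcoln2, a cation channel, changed by 2.43 ± 0.09 and 2.25 ± 0.22 (adjusted p = 3.4e-07 and 5.4e-05).

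Of 12 other V-ATPase subunits, 8 were higher and 1 lower at 48 h, with a median of 0.67. Atp6v0a1, an isoform of the membrane subunit a, had 155 to 218 in vehicle C10, 1080 to 1112 after 3 h, 1153 to 1371 after 12 h, 5014 to 5477 after 24 h and 6731 to 6836 after 48 h. It was the largest V-ATPase change of either list, at 5.20 ± 0.18 (SE, log2, adjusted p = 2.2e-07). Atp6v0b, Tcirg1 (subunit a3) and Atp6v1e1 stood at 1.57 ± 0.08, 1.41 ± 0.08 and 1.05 ± 0.07.

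Of the other MiT factors, Tfec had 1296 and 1195 at 48 h, against 45.5 and the floor of 16 in vehicle C10, at least 16.7-fold higher against the filter level (adjusted p = 1.2e-05). Mitf was 2.11 ± 0.22 higher (SE, log2, adjusted p = 7.0e-05). Of the cathepsin inhibitors, Cstb was higher at 48 h by 1.42 ± 0.09, Cst3 by 0.98 ± 0.08 and Cst7 by 0.57 ± 0.09 (adjusted p from 3.7e-06 to 7.7e-04). Stfa3, the other inhibitor tested, was at least 1.79-fold higher (adjusted p = 7.7e-06). Tfec and Stfa3 were above the filter level in the 12, 24 and 48 h arrays alone, so they passed the filter through groups where they had to be high.

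Of 15 genes of mannose 6-phosphate sorting, 7 were higher and 3 lower at 48 h, beside the same 24.2% and 38.2% of all genes. Gnptab, whose product makes the tag, was -1.46 ± 0.13 and the adaptor Gga2 -2.03 ± 0.12, while the adaptor Gga1 was 1.41 ± 0.21 and Nagpa, which uncovers the tag, 1.01 ± 0.23 (SE, log2, adjusted p from 3.9e-06 to 0.0055). Of 13 genes of nutrient signalling at the lysosome, 6 were higher and 3 lower, beside those shares. Mtor, the kinase that holds TFEB in the cytoplasm, had 1862 and 1632 at 48 h, against 8560 and 8524 in vehicle C10, a change of -2.29 ± 0.10 (adjusted p = 6.2e-07). Rragd was -1.87 ± 0.21, and Rraga and Lamtor1 were 1.48 ± 0.14 and 1.33 ± 0.12 (adjusted p from 2.7e-05 to 1.2e-04). With spike-ins the counts at 48 h, higher and lower, were 8 and 2 of 24 for the hydrolases, 11 and 0 of 20 for the membrane proteins, 6 and 0 of 12 for the V-ATPase, 7 and 1 of 15 for sorting, 6 and 2 of 13 for nutrient signalling, 2 and 0 of 2 for the MiT factors, and 3 and 0 of 4 for the inhibitors. These stand beside 21.5% of all genes higher and 1133 of 11916 lower on that scale.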

How the data were processed

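Each deposited value is a linear signal intensity of a probe set on a 1-colour mouse array, with biotin-labelled targets per the labels. Their mean after trimming 2% at each end equals 500 in all 12 arrays, so the authors had scaled them. The summarising method is not given in the sources used here. The log2 values were quantile normalised over 45101 probe sets, the 64 controls dropped, and a floor of 16 applied. Before normalisation, 21.2% to 24.6% of the probe sets per array, controls aside, were under 16. A gene was read from the probe set with the highest mean signal, with 34958 probe sets naming 1 gene, 932 several and 9160 none. Differences were fitted with limma 3.58.1 in R 4.3.3 on all 12 arrays (6 residual degrees of freedom) and adjusted by Benjamini-Hochberg over 11696 genes. A gene under the filter level in both arrays of a group has a bound. The precision is limited by 2 arrays a group. The script was tested on simulated data. The genes, lists and tests were chosen with earlier results of these data known. Arrays were listed in full for the 3 genes of each class with the largest called change at 48 h and both arrays beyond the vehicle arrays, for genes called in opposite directions early and at 48 h or lower at 48 h, and for Tfeb, Tfe3, Ctsl, Lamp1, Atp6v0d1 and Atp6v0d2. Of the further lists, the 4 largest changes at 48 h were named.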

Additional observations from a re-analysis of the deposited data

How the results depend on the processing

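Counts of lysosomal genes called higher at 24 and 48 h against vehicle C10 and at 48 h against HAFTL stayed within 1.5 times of those given under every alternative tried, and the other counts did not. Scaling to spike-ins left 1 lower at 3 h, 9 higher and 2 lower at 12 h, 1 lower at 24 h, 0 lower at 48 h, 0 and 0 in HAFTL, 0 lower at 48 h against HAFTL, 1 higher and 0 lower from 3 to 12 h, 5 higher from 12 to 24 h, and 1 higher and 0 lower from 24 to 48 h. It reversed, at 3 h, Asah1 (0.23), Atp6v1d (0.13), Gusb (0.43), Lamp1 (0.51) and Tpp1 (0.085), at 12 h Grn (0.37), Hexa (0.047), Ppt1 (0.17) and Tpp1 (0.18), at 24 h Laptm5 (0.33), and at 48 h Glb1 (0.16) and Lgmn (0.082). Centring on medians gave 3 higher and 6 lower in HAFTL. Averaging the probe sets of a gene gave 8 lower at 12 h, 1 lower at 24 h, 5 higher in HAFTL, 2 lower at 48 h against HAFTL and 11 higher from 24 to 48 h, and reversed Gusb at 3 h (0.047), Ppt1 at 12 h (0.29) and Laptm5 at 24 h (0.26). Every probe set on its own gave 5 lower in HAFTL, 2 lower against HAFTL and 2 lower from 3 to 12 h. A fit of the compared groups alone, with fewer arrays, gave 0 lower at 48 h, 0 and 0 in HAFTL, 3 lower against HAFTL, 2 lower from 3 to 12 h, and 6 higher and 0 lower from 24 to 48 h. No filter gave 1 lower at 48 h, a filter at the 70th percentile 5 lower in HAFTL, and a robust prior with a trend 5 lower in HAFTL, 2 lower against HAFTL and 1 lower from 12 to 24 h. HAFTL as the control gave 2 higher at 3 h, 1 lower at 24 h and 1 lower at 48 h, and reversed at 3 h Atp6v1b2 (-0.061) and Ctsd (-0.058) and at 48 h Glb1 (0.030). The reversals given here are of genes called in the main fit. Some genes not called there were called under an alternative, Laptm5 and Atp6v1h at 48 h among them. Apart from the fit with fewer arrays, the cause of these differences was not tested.

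With the replicate number as a block, 1 gene in place of 2 was lower at 48 h, and the other counts stayed within 1.5 times. The numbers share only a number: the correlation of same-numbered deviations was between -0.034 and 0.042 over 15 pairs of groups, 0 of them over 0.1.

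Leaving out each array in turn gave, higher and lower, 4 to 6 and 15 to 18 at 3 h, 11 to 15 and 11 to 14 at 12 h, 29 to 29 and 1 to 2 at 24 h, 29 to 32 and 0 to 2 at 48 h, 2 to 10 and 1 to 3 in HAFTL, 28 to 32 and 1 to 2 against HAFTL, 20 to 25 and 2 to 4 from 3 to 12 h, 28 to 29 and 0 to 0 from 12 to 24 h, and 9 to 15 and 1 to 1 from 24 to 48 h. The lone array of a group was assumed to vary like the other groups. The 2 in HAFTL was without its first array, the 9 from 24 to 48 h without the first 24 h array, and the 0 lower at 48 h without the second vehicle or the first 48 h array. Between 12 and 24 h limma called 0 genes lower at an adjusted p under 0.05, and 1 (Atp6v1h) at an unadjusted p under 0.05. With 2 arrays a group, no outlying array could be tested for, and dim genes such as Ctsk and Ctsl have bounds and not folds.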
